A study of Caenorhabditis elegans with 10 samples.

Results

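Insulin-like peptides are the small secreted hormones of the nematode insulin pathway, and 9 genes that encode them are described here by name: ins-1, ins-4, ins-6, ins-7, ins-17, ins-18, ins-33, ins-35 and daf-28. They were chosen by their sequence names, of 13374 gene units with read counts and 44968 genes with an FPKM value. Of the 9, 7 had counts per library, and ins-7 and ins-18 were read only from the authors' FPKM table, which also lists 31 further genes of the family. The RNA came from whole L1 larvae, the first larval stage, of the wild-type Caenorhabditis elegans strain N2. Larvae that hatch without food stop development in L1 and resume it when they are fed. The 4 groups were larvae starved for about 12 h after hatching (3 libraries) and larvae collected 1 h (2 libraries), 3 h (2 libraries) and 6 h (3 libraries) after E. coli HB101 was added at 25 mg/mL, all in liquid culture at 20 °C. No transgene, mutation or drug was used in any group. Feeding and elapsed time cannot be told apart, since no larvae kept unfed to the later times were analysed here. In RNA from whole larvae, fewer cells of a type and less RNA per cell cannot be told apart either.

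Insulin-like peptides bind DAF-2, the single insulin receptor of the worm. DAF-2 acts through the phosphoinositide 3-kinase AGE-1 and the kinases PDK-1, AKT-1 and AKT-2 to keep the FOXO transcription factor DAF-16 out of the nucleus. Some peptides, among them DAF-28, INS-4, INS-6 and INS-7, are known to activate the receptor and to favour growth, whereas INS-1 and INS-18 are known to antagonise it. Most of the genes are expressed in neurons, and the ASI and ASJ chemosensory neurons, which sense food and pheromone, are known sources of DAF-28, INS-4 and INS-6. These roles are background knowledge and were not measured here.

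Summed counts ranged from 19163997 to 38607167 per library. Levels are CPM, counts relative to the library size after TMM scaling, and differences are log2 fold changes ± SE from edgeR's quasi-likelihood test on all 13226 gene units that passed its filter, called at a Benjamini-Hochberg adjusted p under 0.05. All 7 genes with counts passed that filter. Each had 2 exons, except ins-1 with 3. The SE was derived as the size of the log2 fold change divided by the square root of the test's F statistic. It is therefore approximate, above all for genes with few reads.

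daf-28, ins-4 and ins-6, the genes with counts among the agonists named above, were higher in fed larvae from 1 h on. They stayed higher at 3 h and 6 h. ins-35 was higher at 6 h, ins-17 was lower at 6 h, and ins-1 and ins-33 passed the test at no time. At 1 h, 3 of the 7 genes were called, all higher, where 20.4% of all tested units were called higher and 18.7% lower. At 3 h, 3 of 7 were called, all higher, beside 21.9% of all units called higher and 19.7% lower. At 6 h, 5 of 7 were called, 4 of them higher and 1 lower, beside 27.0% of all units called higher and 25.0% lower. Counting both directions, 3 of 7 is close to the share of all units at 1 h and 3 h, and the counts by themselves do not set the 7 genes apart. The median log2 fold change of the 7 was 0.08 at 1 h, 0.20 at 3 h and 1.07 at 6 h, beside medians of -0.0035, -0.02 and -0.04 over all tested units.

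**Figure D1:**
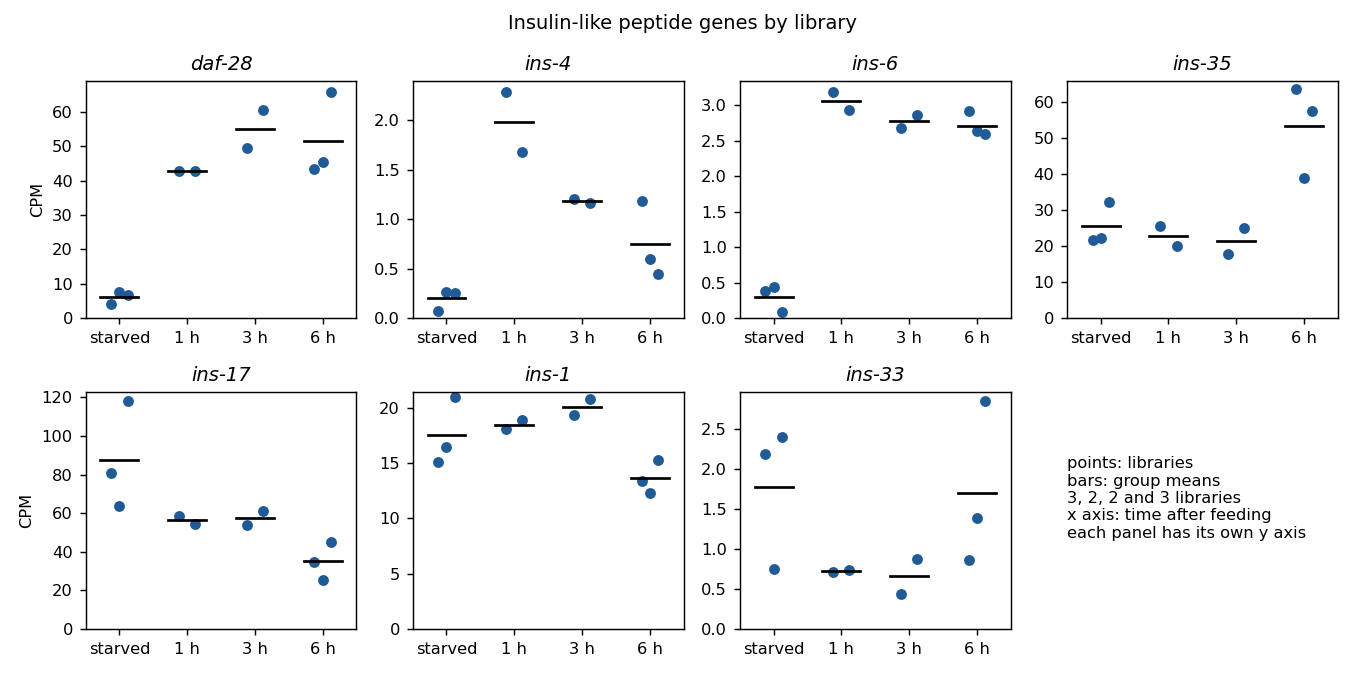
Level in CPM of each of the 7 insulin-like peptide genes with counts in all 10 libraries, with a panel per gene and the starved larvae, 1 h, 3 h and 6 h on the horizontal axis. Points are libraries, whose scatter shows the spread, horizontal bars are group means, and every vertical axis starts at 0. daf-28, ins-4 and ins-6 stand above the starved libraries at all 3 fed times, ins-35 at 6 h, and ins-17 lies lowest at 6 h.

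daf-28 (Y116F11B.1, chromosome V, 19815408 to 19816411 on the plus strand, genome build of WS210) encodes an agonist of DAF-2 whose loss promotes entry into the dauer larva, the long-lived diapause stage. Its level was 4.02, 7.51 and 6.70 CPM in the starved libraries, 42.7 and 42.9 CPM at 1 h, 49.5 and 60.5 CPM at 3 h, and 43.5, 45.6 and 65.9 CPM at 6 h. Every fed library lay far above every starved library, with no overlap at any time. The log2 fold change was 2.81 ± 0.25 at 1 h (adjusted p = 8.06e-07), 3.17 ± 0.25 at 3 h (adjusted p = 2.48e-07) and 3.08 ± 0.24 at 6 h (adjusted p = 1.22e-07). These are rises of 7.0-fold, 9.0-fold and 8.45-fold. Between fed times no difference was called, with 0.36 ± 0.26 for 3 h against 1 h (adjusted p = 0.450) and -0.09 ± 0.24 for 6 h against 3 h (adjusted p = 0.904).

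ins-6 (ZK84.6, chromosome II, 6000451 to 6000973 on the plus strand) encodes an agonist known to promote exit from dauer. It had 0.383, 0.436 and 0.0853 CPM in the starved libraries, from 10, 18 and 2 reads. It had 3.19 and 2.94 CPM at 1 h, 2.68 and 2.87 CPM at 3 h, and 2.91, 2.64 and 2.59 CPM at 6 h, with 49 to 85 reads in each of these libraries. The fed values formed a narrow band above all starved values at every time. In log2 fold change, ins-6 rose by 3.26 ± 0.46 at 1 h (adjusted p = 6.31e-05), 3.11 ± 0.47 at 3 h (adjusted p = 9.41e-05) and 3.08 ± 0.44 at 6 h (adjusted p = 4.25e-05).

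ins-4 (ZK75.1, chromosome II, 5996331 to 5996968 on the plus strand) encodes an agonist known to inhibit dauer entry. Its level was 0.0766, 0.267 and 0.256 CPM in the starved libraries, 2.29 and 1.68 CPM at 1 h, 1.20 and 1.17 CPM at 3 h, and 1.19, 0.601 and 0.448 CPM at 6 h. These values rest on 2, 11 and 6 reads in the starved libraries, 61 and 48 reads at 1 h, 22 and 24 reads at 3 h, and 22, 13 and 9 reads at 6 h. The 2 libraries of 1 h were the highest of all 10, and the lowest fed library was above the highest starved one. Relative to starved larvae, ins-4 rose on the log2 scale by 3.25 ± 0.58 at 1 h (adjusted p = 5.06e-04), 2.51 ± 0.61 at 3 h (adjusted p = 0.00412) and 1.83 ± 0.58 at 6 h (adjusted p = 0.0161). The 6 h value did not pass once starved replicate 1 (1.48 ± 0.60, adjusted p = 0.0573) or 6 h replicate 1 (1.34 ± 0.60, adjusted p = 0.0795) was left out. The lower values after 1 h were not called as different, with -0.74 ± 0.59 for 3 h against 1 h (adjusted p = 0.497) and -0.67 ± 0.57 for 6 h against 3 h (adjusted p = 0.646).

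ins-4 and ins-6 lie on the same strand within 4643 bases of chromosome II, 5996331 to 6000973, with ins-5 (ZK84.3) between them. The gaps are 1435 bases between ins-4 and ins-5 and 1471 bases between ins-5 and ins-6. ins-5 rose as well at each time, by 3.05 ± 0.70 at 1 h (adjusted p = 0.00309), 3.84 ± 0.69 at 3 h (adjusted p = 4.57e-04) and 4.59 ± 0.66 at 6 h (adjusted p = 4.49e-05). The starved libraries held only 6, 0 and 12 reads of ins-5. Leaving out a library gave 2.30 to 4.21 at 1 h and 3.83 to 5.74 at 6 h. Its mean level was 0.247 CPM in starved larvae, then 1.84 CPM after 1 h, 3.18 CPM after 3 h and 5.35 CPM after 6 h, so its order over the fed times ran opposite to that of ins-4. No difference between consecutive fed times was called for ins-5, with 0.78 ± 0.65 for 3 h against 1 h (adjusted p = 0.515) and 0.75 ± 0.59 for 6 h against 3 h (adjusted p = 0.619). The run belongs to a group of 6 insulin-like peptide genes (ins-2, ins-3, ins-4, ins-5, ins-6 and ins-20) between 5988489 and 6011281. The similarity of these genes in sequence was not examined, so reads that could belong to more than 1 of them were not separated here.

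ins-35 (K02E2.4, chromosome V, 20375503 to 20376264 on the plus strand) encodes a peptide known from the intestine. It had 21.8, 22.3 and 32.3 CPM in the starved libraries, 25.6 and 19.9 CPM at 1 h, 17.7 and 25.0 CPM at 3 h, and 63.5, 38.9 and 57.6 CPM at 6 h. The libraries of 1 h and 3 h overlapped those of starved larvae, and all 3 libraries of 6 h lay above the other 7. The log2 fold change against starved larvae was -0.16 ± 0.25 at 1 h (adjusted p = 0.644), -0.25 ± 0.25 at 3 h (adjusted p = 0.457) and 1.07 ± 0.22 at 6 h (adjusted p = 9.81e-04). From 3 h to 6 h the log2 fold change was 1.32 ± 0.26 (adjusted p = 0.0107), a rise of 2.49-fold. This was 1 of 7 genes called for 6 h against 3 h, where 2.77% of all tested units were called. Without 3 h replicate 1 the value was 1.09 ± 0.33 and the call was lost (adjusted p = 0.220). That fit takes the spread of the lone 3 h library from the other groups.

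ins-17 (F56F3.6, chromosome III, 4476855 to 4477550 on the minus strand) encodes a peptide that has been linked to dauer entry. It had 80.9, 63.7 and 118 CPM in the starved libraries, 58.5 and 54.5 CPM at 1 h, 53.6 and 60.9 CPM at 3 h, and 34.8, 25.5 and 44.9 CPM at 6 h. All fed libraries were below all starved ones, and the 3 libraries of 6 h were below every other library. The log2 fold change was -0.63 ± 0.26 at 1 h (adjusted p = 0.0650), -0.61 ± 0.26 at 3 h (adjusted p = 0.0701) and -1.32 ± 0.23 at 6 h (adjusted p = 2.54e-04), so only the fall at 6 h was called, a 2.50-fold decrease. Without starved replicate 2, the lowest starved library, the values passed at 1 h (-0.83, adjusted p = 0.0168) and at 3 h (-0.81, adjusted p = 0.0182). Over all fits that left out a library, the values were -0.83 to -0.36 at 1 h and -0.81 to -0.34 at 3 h. The annotated 3′ end of ins-17 abuts rps-3A, a ribosomal protein gene on the plus strand that ends at 4476854, and whether the counting used the strand is not given. The mean level of rps-3A was 2790 CPM in starved larvae, then 2505 CPM after 1 h, 4601 CPM after 3 h and 5421 CPM after 6 h, highest where ins-17 was lowest, and its part in the counts of ins-17 was not tested.

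ins-1 (F13B12.5, chromosome IV, 10436680 to 10438384 on the plus strand) encodes a neuronal antagonist of DAF-2. It had 15.1, 16.5 and 21 CPM in the starved libraries, 18.1 and 18.9 CPM at 1 h, 19.4 and 20.8 CPM at 3 h, and 13.4, 12.3 and 15.3 CPM at 6 h. The fed and starved libraries overlapped at each time. The log2 fold change was 0.08 ± 0.19 at 1 h (adjusted p = 0.784), 0.20 ± 0.19 at 3 h (adjusted p = 0.442) and -0.36 ± 0.17 at 6 h (adjusted p = 0.0961). The sign at 1 h and 3 h changed with the scaling of the libraries. At 6 h the value was called lower with library totals alone (-0.68, adjusted p = 0.00527) and with upper-quartile scaling (-0.56, adjusted p = 0.0160). For 6 h against 3 h it was -0.55 ± 0.19, not called (adjusted p = 0.164). A joint test of any difference among the 4 times did not call ins-1 (adjusted p = 0.0867). That test passed with totals alone (adjusted p = 0.00589), upper-quartile scaling (0.0387), barcode sets as a block (0.0215) and the libraries of barcodes 1 to 8 (0.0450).

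ins-33 (W09C5.4, chromosome I, 13637835 to 13639299 on the minus strand) was the least abundant of the 4 genes that did not rise at 1 h. This gene is a known target of the heterochronic transcription factor LIN-14. It had 2.18, 0.751 and 2.39 CPM in the starved libraries, 0.712 and 0.734 CPM at 1 h, 0.437 and 0.875 CPM at 3 h, and 0.863, 1.39 and 2.84 CPM at 6 h. The values spread widely within the starved and within the 6 h group, and starved replicate 2 lay with the fed libraries of 1 h and 3 h. The log2 fold change was -1.27 ± 0.62 at 1 h (adjusted p = 0.123), -1.40 ± 0.65 at 3 h (adjusted p = 0.0989) and -0.04 ± 0.52 at 6 h (adjusted p = 0.952). Without starved replicate 2 it was called at 1 h (-1.67, adjusted p = 0.0374) and 3 h (-1.79, adjusted p = 0.0300).

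**Figure D2:**
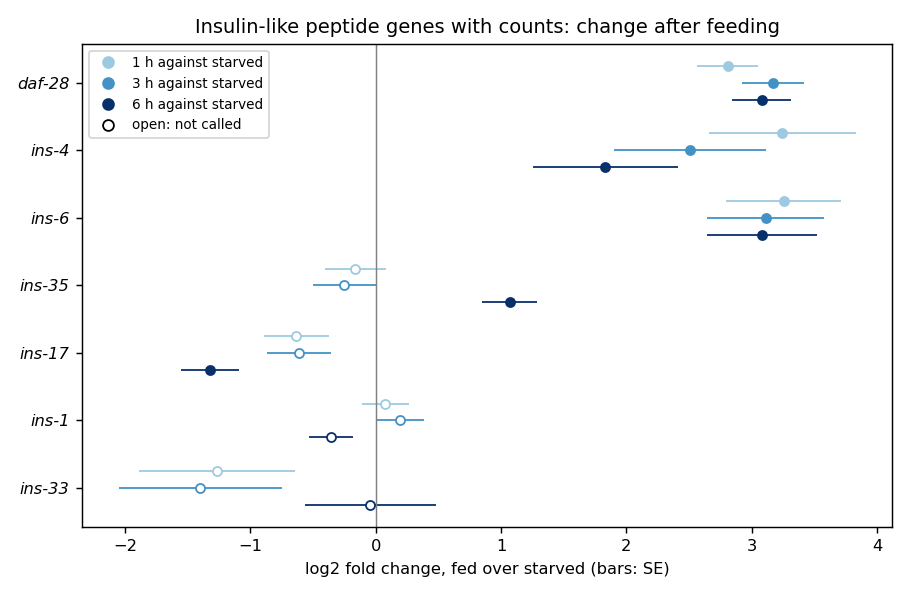
Log2 fold change of the 7 genes at 1 h, 3 h and 6 h, each against starved larvae, on the horizontal axis. Bars are SEs derived from the F statistic of edgeR's quasi-likelihood test, and open points are values not called at an adjusted p of 0.05. The values of daf-28 and ins-6 lie close together at the 3 times, those of ins-4 step down from 3.25 to 1.83, and ins-35 and ins-17 are called at 6 h alone.

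A joint test of any difference among the 4 times called 5 of the 7 genes (ins-4, ins-6, ins-17, ins-35 and daf-28), where 55.8% of all tested units were called. For 3 h against 1 h, 0 of the 7 genes were called by edgeR, where 9.38% of all units were called. DESeq2 also called 0, and an unadjusted p under 0.05 was found for 0 of the 7 by either tool. Libraries did not overlap with the starved group for 3 genes that were higher and 2 that were lower at 1 h, beside 31.9% and 29.7% of all units. At 3 h they did not overlap for 3 higher and 1 lower, beside 31.8% and 30.8%, and at 6 h for 4 higher and 1 lower, beside 28.2% and 27.0%. Separation of the libraries was therefore common among all genes in groups of this size.

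Per kilobase of exonic sequence, the order of the 7 transcripts in starved larvae was led by ins-17 at 147 ± 46.6 CPM per kb (SD, n = 3). It was followed by ins-35 at 67.5 ± 15.6, ins-1 at 22.0 ± 3.89, daf-28 at 10.2 ± 3.07 and ins-33 at 3.42 ± 1.72 CPM per kb. The libraries of each of these genes did not overlap with those of the next. ins-6 at 0.643 ± 0.403 and ins-4 at 0.344 ± 0.184 CPM per kb came last and overlapped each other. At 1 h daf-28 was second at 71.9 ± 0.276 CPM per kb, behind ins-17 at 94.5 ± 4.82 (SD, n = 2). At 3 h ins-17 at 95.7 ± 8.56 and daf-28 at 92.4 ± 13 CPM per kb overlapped (SD, n = 2). At 6 h the first 3 were ins-35 at 141 ± 34.0, daf-28 at 86.8 ± 20.8 and ins-17 at 58.6 ± 16.2 CPM per kb, each overlapping the next (SD, n = 3). ins-6 came after ins-1 at each fed time, at 6.53 ± 0.373, 5.91 ± 0.290 and 5.78 ± 0.371 CPM per kb.

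The level per kb summed over the 7 genes varied less than its make-up. It was 251 ± 66.3 CPM per kb in starved larvae (n = 3), 261 ± 15.5 at 1 h (n = 2), 279 ± 37.2 at 3 h (n = 2) and 314 ± 62.0 at 6 h (n = 3, SDs), and these ranges overlapped. ins-17 made up 57.9 ± 4.45% of the sum in starved larvae, then 36.2 ± 0.297% after 1 h, 34.4 ± 1.52% after 3 h and 18.5 ± 1.64% after 6 h. daf-28 made up 4.24 ± 1.76%, 27.6 ± 1.74%, 33.1 ± 0.245% and 27.8 ± 4.69% at the same times. ins-35 made up 27.1 ± 1.91%, 23 ± 2.70%, 20.1 ± 2.17% and 44.9 ± 5.80%. The lowest share of daf-28 in a fed library was 22.4%, and the highest in a starved library was 6.26%.

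**Figure D3:**
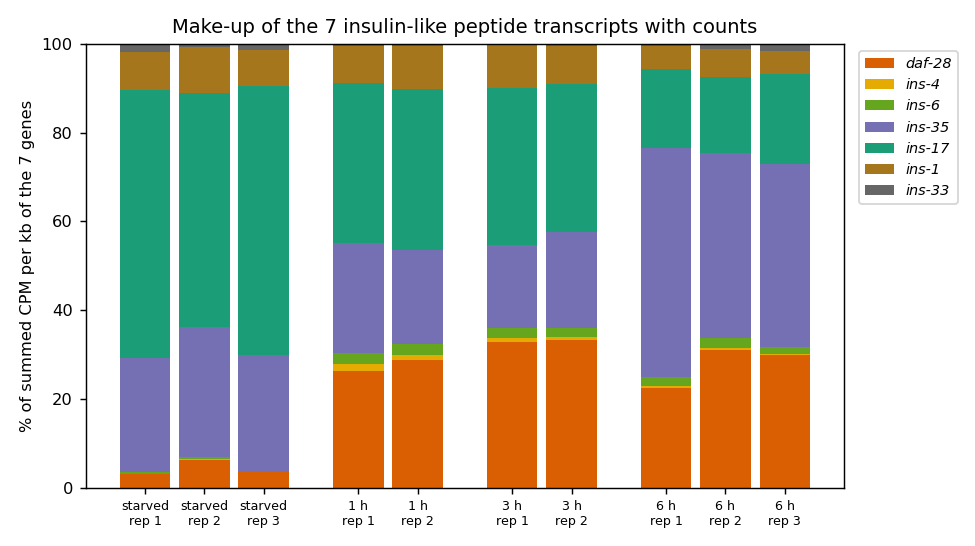
Share in percent of each of the 7 genes in their summed CPM per kb, with a stacked bar per library in the order starved, 1 h, 3 h and 6 h. The share of ins-17 is 17.2% to 20.3% at 6 h, against 52.8% to 60.6% in the starved libraries, and that of ins-35 is 41.3% to 51.6% at 6 h.

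The 15 exonic bins of the 7 genes were all tested for use relative to their gene with edgeR's diffSpliceDGE. None of the 15 was called at any time, where 0.0755% of all tested bins were called at 1 h, 0.0560% at 3 h and 0.187% at 6 h. The smallest unadjusted p of the 15 over the 3 times was 0.211. The first bin of daf-28 held 31.4% to 36.1% of the reads of the gene in starved libraries, 35.7% to 36.9% at 1 h, 39% to 41.6% at 3 h and 37.1% to 42.9% at 6 h. The first bin of ins-6 held 47.1% to 60.7% at 1 h and 68.5% to 78.9% at 6 h, but in starved libraries its share spread over 30.0% to 100%, on few reads. No exon of these 7 genes overlaps an annotated exon on the other strand.

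ins-18 and ins-7 were read from the authors' FPKM, which pool the libraries of a time and carry no SD. ins-18 (T28B8.2, chromosome I, 8147421 to 8149706), a known antagonist, had 57.7 FPKM in starved larvae, then 55.4 after 1 h, 39.3 after 3 h and 27.7 after 6 h. The authors' confidence bounds at 6 h, 17 and 38.4 FPKM, overlapped those of starved larvae, 35.9 and 79.5 FPKM. The log2 ratio of ins-18 at 6 h was -1.06, beside a median of -0.36 over 12604 genes with at least 1 FPKM at every time. ins-7 (ZK1251.2, chromosome IV, 9681988 to 9682905), an agonist known to be repressed by DAF-16 in the intestine, had 0.357 FPKM in starved larvae, then 1.74 after 1 h, 0.156 after 3 h and 0.381 after 6 h. Its lower bound was above 0 at 1 h alone, at 0.652 FPKM, and its bounds overlapped those of starved larvae at each time. An exon of ins-7 overlaps the other-strand gene ZK1251.14.

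The authors' FPKM of the 7 genes with counts went the same way where the counts were called. daf-28 had 16.3 FPKM in starved larvae, then 104.9 after 1 h, 107.5 after 3 h and 97.9 after 6 h, and ins-6 had 1.30, 11.8, 8.21 and 6.50 FPKM at these times. Their bounds at each fed time were apart from those of starved larvae. ins-4 had 0.587 FPKM in starved larvae, then 5.53 after 1 h, 2.79 after 3 h and 1.40 after 6 h, with bounds that overlapped those of starved larvae at 6 h. ins-17 had 234 FPKM in starved larvae, 169, 127 and 75.2 at the fed times, and its bounds at 6 h were apart from those of starved larvae. The bounds of ins-35 at 6 h overlapped them.

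Over the whole family of 40 genes in the authors' table, 17 reached 10 FPKM or more at some time, 17 had their highest value between 1 and 10, and 6 stayed under 1. 1 of the first 17, ins-10, carried a failed status in the table. ins-8 was listed at 0 throughout. The highest of the 4 values fell in starved larvae for 18 genes, at 1 h for 13, at 3 h for 3 and at 6 h for 5. FPKM were lower at the later times for genes in general. The median log2 ratio to starved larvae was 0.015 at 1 h, -0.31 at 3 h and -0.36 at 6 h, over 12604 genes with at least 1 FPKM throughout. How many of all genes had their highest value at each time was not counted. The counts of highest values are therefore a description and say nothing particular about the family. The family is spread over 6 chromosomes, and 16 of the 40 genes are on chromosome II. The highest value in the table was that of ins-17 in starved larvae, 234 FPKM, followed by that of ins-27, which had 185 FPKM in starved larvae, then 78.4 after 1 h, 143 after 3 h and 228 after 6 h.

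**Figure D4:**
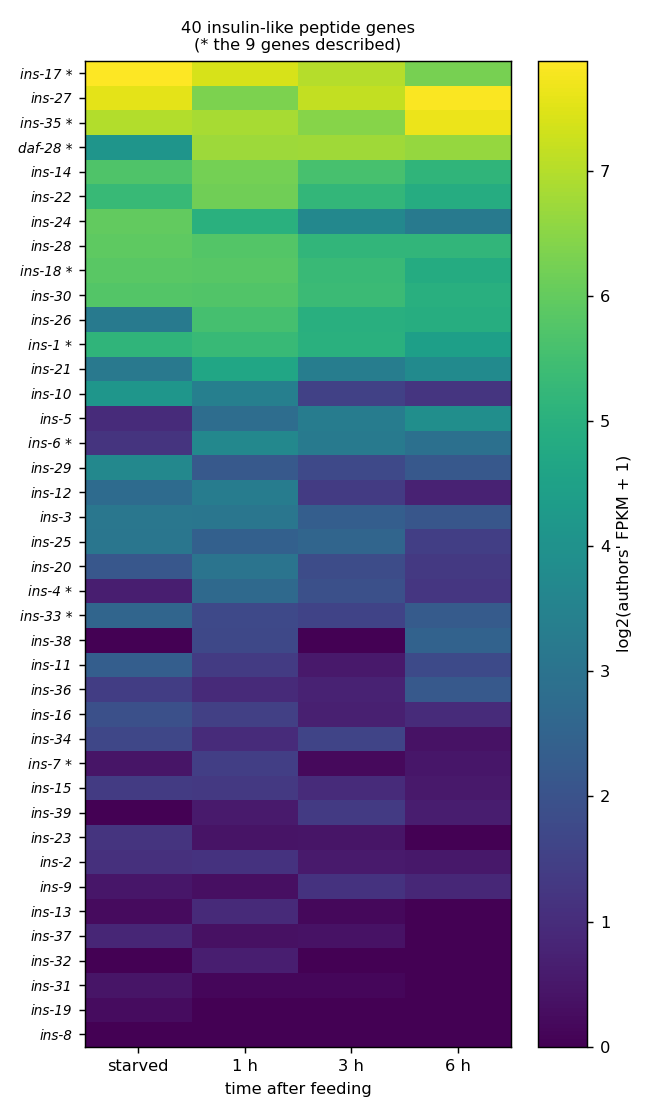
Authors' FPKM of the 40 insulin-like peptide genes, a row each, as log2 of FPKM + 1 in colour, in starved larvae and at 1 h, 3 h and 6 h after feeding. The values pool the libraries of a time. The 9 genes described by name are marked with a star, and ins-17, ins-27, ins-35 and daf-28 hold the highest values.

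Of the 31 other family genes, 13 had counts and passed the filter. At 1 h, 5 of the 13 were called, 3 higher (ins-5, ins-21 and ins-26) and 2 lower (ins-24 and ins-27). At 3 h, 3 were called, ins-5 and ins-26 higher and ins-24 lower. At 6 h, 9 were called, 3 higher (ins-5, ins-26 and ins-27) and 6 lower (ins-3, ins-12, ins-14, ins-24, ins-28 and ins-34). The shares called were 5, 3 and 9 of 13, beside 20.4%, 21.9% and 27.0% of all units higher and 18.7%, 19.7% and 25.0% lower, so the shares at 1 h and 3 h were no larger than those of all units. The median log2 fold change of the 13 was 0.40 at 1 h, 0.06 at 3 h and -0.46 at 6 h. ins-26 rose by 2.26 ± 0.31 at 1 h (adjusted p = 4.66e-05), 2.12 ± 0.31 at 3 h and 2.18 ± 0.29 at 6 h, at a mean of 2.64 CPM in starved larvae, then 12.5 CPM after 1 h, 11.4 CPM after 3 h and 11.8 CPM after 6 h. Its values at the 3 times lie as close together as those of ins-6. ins-24 fell at each time, with 19.5 CPM in starved larvae, then 8.45 after 1 h, 4.78 after 3 h and 3.27 CPM after 6 h, and a log2 fold change at 6 h of -2.58 ± 0.24 (adjusted p = 8.16e-07). ins-27 was lower at 1 h, -1.08 ± 0.27 (adjusted p = 0.00587), and higher at 6 h, 0.62 ± 0.23 (adjusted p = 0.0367). The first call was lost without 1 h replicate 2 (adjusted p = 0.116). The second did not pass once starved replicate 2 (0.45, adjusted p = 0.144) or 6 h replicate 1 (0.43, adjusted p = 0.168) was left out, nor with library totals alone (0.29, adjusted p = 0.312) or with upper-quartile scaling (0.42, adjusted p = 0.156). ins-24, ins-26 and ins-27 lie together with ins-25, ins-28, ins-29 and ins-30 within 25362 bases of chromosome I, from 14012429 to 14037790. Neighbours in that group therefore differed in direction, and so did those on chromosome II at 6 h, where ins-3 was lower (-1.11 ± 0.35, adjusted p = 0.0169) and ins-4, ins-5 and ins-6 were higher. At 6 h the falls of ins-3, ins-14, ins-28 and ins-34 lost the call in 3, 8, 4 and 4 of the 10 fits that left out a library (adjusted p = 0.0551 to 0.137).

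The receptor gene and 4 other genes of its cascade were lower at each fed time, whereas others were not called or were higher. Of the 8 genes in the list of receptor and kinase cascade, 5 were lower and 1 higher at 1 h, 5 lower and 0 higher at 3 h, and 5 lower and 1 higher at 6 h. Over all units, 18.7%, 19.7% and 25.0% were called lower at these times, and 20.4%, 21.9% and 27.0% higher. The list's median log2 fold change was -1.76, -1.07 and -0.83, beside -0.0035, -0.02 and -0.04 over all units. The receptor gene daf-2 had 95.5 ± 29.0 CPM in starved larvae, then 26.8 ± 6.32 after 1 h, 30.1 ± 5.56 after 3 h and 33.9 ± 7.78 CPM after 6 h, with a log2 fold change at 1 h of -1.84 ± 0.28 (adjusted p = 1.09e-04). akt-1, a kinase gene of the pathway, had 284 ± 32.4 CPM in starved larvae, then 29.1 ± 1.42 after 1 h, 47.5 ± 0.230 after 3 h and 74.2 ± 7.47 CPM after 6 h (SD, n = 3, 2, 2 and 3). Its log2 fold change was -3.29 ± 0.19 at 1 h (adjusted p = 1.47e-08) and -1.94 ± 0.15 at 6 h (adjusted p = 1.23e-07). akt-2, the other AKT kinase gene, fell by 1.69 at 1 h and by 0.61 at 6 h on the log2 scale, and ist-1, which encodes a relative of insulin receptor substrates, fell by 1.99 at 1 h and 2.09 at 6 h. Outside the rule for naming were pdk-1, sgk-1 and aap-1, named here after their values were seen. pdk-1 was lower at each time (-2.04 at 1 h, adjusted p = 3.09e-05). sgk-1, a related kinase gene, was higher at 1 h (0.97, adjusted p = 0.00100) and at 6 h (0.45, adjusted p = 0.0420). aap-1 was not called at any time, with 0.22 at 1 h, 0.26 at 3 h and 0.36 at 6 h (adjusted p = 0.330, 0.247 and 0.0569). The call of sgk-1 at 6 h was lost in 9 of the 10 fits that left out a library (adjusted p = 0.0592 to 0.179), with library totals alone (adjusted p = 0.595) and with upper-quartile scaling (adjusted p = 0.275). age-1, the catalytic subunit gene of the phosphoinositide 3-kinase, was not called, with 0.01 ± 0.19 at 1 h (adjusted p = 0.987), -0.20 ± 0.20 at 3 h (adjusted p = 0.464) and -0.20 ± 0.18 at 6 h (adjusted p = 0.369).

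Changes of daf-16 itself and its partners were smaller than those of akt-1. The phosphatase subunit gene pptr-1, a regulator of AKT-1, was not called at any time (adjusted p = 0.133 to 0.956). daf-16 had 57.9 ± 16.7 CPM in starved larvae, then 40.8 ± 12.7 after 1 h, 41.3 ± 3.25 after 3 h and 35.5 ± 5.31 CPM after 6 h, and was called at 6 h (-0.70 ± 0.22, adjusted p = 0.0155). It did not pass once starved replicate 2 (adjusted p = 0.0612) or 6 h replicate 1 (adjusted p = 0.0662) was left out. Among DAF-16 and 6 partner genes, 2 were higher and 0 lower at 1 h, and 3 higher and 1 lower at 3 h. At 6 h, 2 were higher and 2 lower. These are shares of few genes, beside 20.4%, 21.9% and 27.0% of all units higher and 18.7%, 19.7% and 25.0% lower. Among the partner genes was hcf-1, a nuclear regulator of DAF-16, higher at each time (1.07 ± 0.15 at 1 h, adjusted p = 5.67e-05). At 3 h the calls of the deacetylase gene sir-2.1, the 14-3-3 gene par-5 and the transcription factor gene pqm-1 were lost in 2, 1 and 2 of the 10 fits that left out a library (adjusted p = 0.0511 to 0.149). Those of sir-2.1 and par-5 at 3 h were also lost with library totals alone (adjusted p = 0.229 and 0.102) and with upper-quartile scaling (adjusted p = 0.0568 and 0.0534), and that of par-5 at 6 h with library totals alone (adjusted p = 0.112).

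Most tested genes whose transcription DAF-16 is known to favour were lower in fed larvae. Of 10 listed, 8 could be tested, and 6 were lower and 0 higher at each of the 3 times. Of all units, 18.7%, 19.7% and 25.0% were lower and 20.4%, 21.9% and 27.0% higher. The median log2 fold changes of the 8 were -5.10, -4.96 and -5.21. The 2 not called at any time were cki-1 (-0.31, 0.22 and 0.01) and old-1 (0.19, -0.09 and -0.33), and ftn-1, also named after its values were seen, was -4.93 at 1 h and -1.20 at 6 h (adjusted p = 0.00466). The metallothionein gene mtl-1 had 52.5 ± 15.8 CPM in starved larvae, then 1.26 ± 0.496 after 1 h, 0.504 ± 0.250 after 3 h and 0.778 ± 0.286 CPM after 6 h. The small heat shock protein gene hsp-12.6 had at most 0.196 CPM on average at any fed time, against 7.83 ± 2.89 CPM in starved larvae. dod-3 and hil-1, a linker histone gene, fell by 6.45 and 5.84 on the log2 scale at 1 h.

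Genes for making and releasing peptides were lower or not called. Of 12 genes for peptide processing and dense-core vesicle release, 10 could be tested, and 4 were lower at 1 h, 4 at 3 h and 5 at 6 h, with none called higher, beside 18.7%, 19.7% and 25.0% of all units lower and 20.4%, 21.9% and 27.0% higher. egl-21, which encodes the carboxypeptidase that trims neuropeptide precursors, had 1366 ± 203 CPM in starved larvae, then 870 ± 77.5 after 1 h, 908 ± 47.7 after 3 h and 716 ± 84.5 CPM after 6 h. sbt-1, the gene of the 7B2 chaperone of the proprotein convertase EGL-3, had 365 ± 18.9 CPM at 6 h, against 736 ± 72.4 CPM in starved larvae (-1.01 ± 0.16, adjusted p = 1.02e-04). ida-1, a dense-core vesicle gene, fell by 1.15 on the log2 scale at 6 h (adjusted p = 0.00124), and unc-108, a Rab2 GTPase gene for vesicle maturation, by 0.42 (adjusted p = 0.0349). The calls of sbt-1 at 1 h, of egl-21, ida-1 and unc-108 at 1 h and 3 h, and of unc-108 at 6 h were lost in 2 to 8 of the 10 fits that left out a library (adjusted p = 0.0501 to 0.225).

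**Figure D5:**
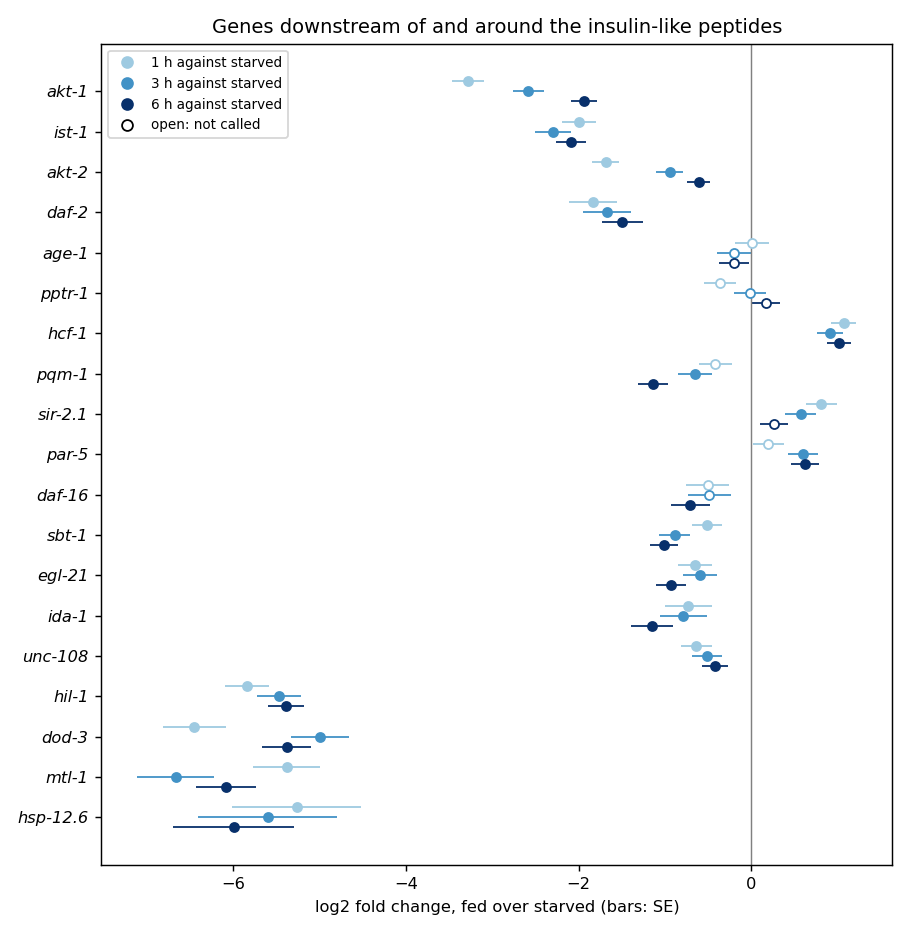
Log2 fold change at 1 h, 3 h and 6 h against starved larvae for the named genes of the receptor and kinase cascade, its regulator pptr-1, DAF-16 and partners, peptide processing and release, and DAF-16 class genes. Bars are SEs derived from the F statistic of edgeR's test and open points are not called. akt-1, daf-2 and the DAF-16 class genes drawn (hil-1, dod-3, mtl-1 and hsp-12.6) lie left of 0 at every time, and hcf-1 lies right of it. Those DAF-16 class genes were drawn for having the smallest joint p of their list. Genes named after their values were seen are not drawn, nor are cki-1 and old-1, which varied in sign and were not called.

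Markers of neurons, the cells known to express most of the peptides, were summed at each time. The largest part of the pan-neuronal sum was snb-1, with 502 ± 183 CPM in starved larvae. Of 10 pan-neuronal markers, 9 could be tested, with 0 higher at any time and 1, 2 and 3 lower at 1 h, 3 h and 6 h, where 18.7%, 19.7% and 25.0% of all units were lower and 20.4%, 21.9% and 27.0% higher. Their summed level was 1099 to 1466 CPM in starved libraries, 958 to 1136 at 1 h, 996 to 1016 at 3 h and 823 to 1037 CPM at 6 h, and none was at 0. Of 9 markers of ASI, ASJ and other ciliated neurons, 7 could be tested, and 1 was higher at each time, with 0 lower at 1 h and 3 h and 3 lower at 6 h. The higher one was daf-7, the TGF-beta ligand gene of ASI, named after its values were seen, with 52.5 ± 7.75 CPM in starved larvae, then 86.7 ± 3.38 after 1 h, 87.5 ± 4.16 after 3 h and 88.2 ± 9.65 CPM after 6 h. The summed level of these 7 markers was 79.3 to 108.4 CPM in starved libraries, 125 to 130 at 1 h, 119 to 120 at 3 h and 106 to 119 CPM at 6 h, again with none at 0. The higher sums at 1 h and 3 h rest on daf-7. The other 6, summed without it after the values were seen, gave 28.5 to 49.1 CPM in starved libraries, 40.8 to 41.3 at 1 h, 28.8 to 35.8 at 3 h and 21.1 to 27.9 CPM at 6 h. The 7 intestinal markers tested had 3 higher and 2 lower at each time, and their sum was 1668 to 1964 CPM in starved libraries, 1799 to 1972 at 1 h, 2380 to 2425 at 3 h and 2143 to 2986 CPM at 6 h. These markers differed in direction. act-5 had 225 CPM in starved larvae, then 450 after 1 h, 910 after 3 h and 957 CPM after 6 h, whereas ges-1 and ifb-2 were lower at each time, and the median log2 fold change of the 7 was 0.07 at 6 h. Muscle markers were lower (2, 3 and 3 of 3 tested), hypodermal markers higher (1, 3 and 3 of 3), and germline markers had 0, 1 and 2 of 5 lower. The part of these markers' changes in the peptide results was not tested.

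The barcodes of the libraries fall into sets of 4, and each set holds starved and fed libraries. Within sets, the difference in log2 CPM from the starved library lay between 2.50 and 3.60 for daf-28 over all fed times, between 2.39 and 4.00 for ins-6, and between 0.65 and 3.90 for ins-4. For ins-35 at 6 h it lay between 0.80 and 1.54, and for ins-17 at 6 h between -1.40 and -1.22. For the 7 genes, the direction of each value called against starved larvae was the same in every set. This was fixed in advance, since the fed and starved libraries did not overlap for any of these values.

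Named genes with a mean log2 CPM of at least 2 were ranked by likeness, that is by how closely their log2 CPM over the 10 libraries followed that of each peptide gene, among 6285 genes. The 10 points share 4 groups, so these Pearson correlations describe the time course and carry no test. Closest to daf-28 were cchl-1 (r = 0.998), cpr-5, a cathepsin B-like protease gene (r = 0.997), and tomm-40, a gene of the mitochondrial import pore (r = 0.991). Closest to ins-6 were tbc-12 (r = 0.986), daf-36, the Rieske oxygenase gene of dafachronic acid synthesis (r = 0.986), and cra-1 (r = 0.984). The level of daf-36 was 0.749 CPM in starved larvae, then 38.9 after 1 h, 20.2 after 3 h and 17.5 CPM after 6 h. Closest to ins-4 were lec-11, a galectin gene (r = 0.979), ttm-1 (r = 0.953) and rsp-5 (r = 0.951). Closest to ins-17 were the neuropeptide gene flp-11 (r = 0.983), osta-1 (r = 0.952) and the neuropeptide gene flp-27 (r = 0.951). flp-11 had 273 CPM in starved larvae, then 173 after 1 h, 162 after 3 h and 114 CPM after 6 h. Closest to ins-35 were papl-1 (r = 0.933), dhhc-4 (r = 0.925) and mls-2 (r = 0.923). For ins-1 the closest were srx-45 (r = 0.930), klf-3 (r = 0.923) and nssp-18 (r = 0.909), and for ins-33 pezo-1 (r = 0.934), pud-3 (r = 0.911) and nhx-5 (r = 0.886).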

How the data were processed

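Polyadenylated RNA of 10 libraries in 4 groups was sequenced on a SOLiD 4 instrument, per the labels' protocols. Groups come from the sample titles. Replicates are called biological in the design text, without naming separate cultures, so p values reflect the scatter of these samples only, part of which may be technical. Per the submitters' processing notes, Bowtie 0.12.7 and TopHat served for alignment. The authors deposited counts of reads for every exonic bin, whole numbers made with DEXSeq scripts on WS210 gene models, per the deposited notes. The strand setting of that counting is not given in the sources consulted. The deposited FPKM values were made by the authors with cuffdiff, per the deposited notes, set to stranded libraries and fragments of 150 ± 40 bases (mean, SD), and pool the libraries of a time. The reference annotation, WBcel235, is of another build and served for symbols only. No genome or sequence table was used here, so no sequence, motif or protein is given.

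Bin counts were summed per gene, so a read that spans bins is counted in each. Reads outside the bins, 8.35% to 11.4% of the total, were left out. Tests were run with edgeR 4.0.16 in R 4.3.3 (filterByExpr, TMM factors of 0.813 to 1.20, robust quasi-likelihood fit over all 10 libraries, biological coefficient of variation 0.206), with limma 3.58.1 installed beside it and DESeq2 1.42.0 as an alternative. Of 13374 units, 257 merge overlapping genes and 148 failed the filter. The log2 CPM used for likeness and for the barcode sets has a prior count of 2. The tests recovered known changes on simulated data in a check. These changes were put only into genes and bins above a minimum mean level, with a fixed spread. The check therefore does not cover the genes with the fewest reads. All 9 genes are named in each comparison. Of each pathway list, the 4 with the smallest joint p are named, plus daf-2, age-1, akt-1 and daf-16, and 1 gene of these lists is not reported here. The genes, lists and tests were chosen with earlier results of these data known. The alternatives were other scalings, no filter, DESeq2, barcode sets as a block, the libraries of barcodes 1 to 8, leaving out each library, and leaving out bins that overlap a bin on the other strand.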

Additional observations from a re-analysis of the deposited data

Results flagged for a closer look

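ins-35 was the gene of the 7 called between 2 consecutive fed times with all libraries and no block. Its log2 fold change for 6 h against 3 h was 1.32 ± 0.26 (adjusted p = 0.0107, edgeR's quasi-likelihood test), while against starved larvae it was 1.07 ± 0.22 at 6 h and -0.25 ± 0.25 at 3 h. All 3 libraries of 6 h (63.5, 38.9 and 57.6 CPM) were above both libraries of 3 h (17.7 and 25.0 CPM). The call was lost without 3 h replicate 1 (1.09, adjusted p = 0.220). For the same contrast the replicate block also called ins-17 (-0.97, adjusted p = 0.00402) and ins-1 (-0.67, adjusted p = 0.0492), and the libraries of barcodes 1 to 8 called ins-17 (-0.93, adjusted p = 0.0257). The difference of the effects at 6 h and 3 h is this same contrast, since both share the starved libraries. Intestinal markers, listed because the gene is known from that tissue, summed to 2143 to 2986 CPM at 6 h and 2380 to 2425 CPM at 3 h, ranges that overlap.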

How the results depend on the processing

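The 114 tracked values of single genes were recomputed under each alternative, 2052 values in all. Of these, 1913 kept their direction and their side of the threshold, 94 lost a call, 23 gained one and 22 changed sign. None of the 22 belonged to a called value. daf-28 and ins-6 at each fed time against starved larvae, and ins-4 at 1 h and 3 h, kept their call under every alternative run.

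Changes of sign with other scalings were -0.057 for ins-1 at 1 h with upper-quartile scaling, and with library totals alone -0.041 for ins-1 at 3 h and, for 3 h against 1 h, -0.24 for ins-1, -0.35 for ins-17 and -0.0049 for daf-28. The libraries of barcodes 1 to 8 gave 0.043 for ins-35 at 1 h, and the replicate block 0.17 for ins-6 at 6 h against 3 h. Leaving out 1 library gave ranges across 0 of -0.017 to 0.23 for ins-1 at 1 h, -0.38 to 0.043 for ins-35 at 1 h and -0.63 to 0.27 for ins-33 at 6 h. For 3 h against 1 h such ranges were -0.075 to 0.11 for ins-17, -0.72 to 0.27 for ins-33 and -0.36 to 0.14 for ins-35, and for 6 h against 3 h -0.086 to 0.019 for ins-6 and -0.30 to 0.061 for daf-28.

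Over all units the median log2 fold change became 0.11 at 1 h, -0.26 at 3 h, -0.37 at 6 h and -0.37 for 3 h against 1 h with library totals alone. With upper-quartile scaling it became -0.13, -0.16 and -0.24 at the fed times, so changes are relative to the bulk of the genes. Totals alone split the calls of 1 h into 3073 higher and 1977 lower, those of 3 h into 2014 and 3570, those of 6 h into 2345 and 4959, those of 3 h against 1 h into 246 and 1707, and those of 6 h against 3 h into 198 and 116. With TMM these were 2696 and 2467, 2896 and 2605, 3570 and 3303, 633 and 608, and 278 and 88, and with upper-quartile scaling the 1 h calls were 2247 higher and 3037 lower, the 3 h calls 2400 and 3211, and the 6 h calls 2814 and 4368. ins-17 was called at 1 h with upper-quartile scaling (adjusted p = 0.0343) and DESeq2 (adjusted p = 0.0425), and at 3 h with these and totals alone (adjusted p = 0.0145 to 0.0494).

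Labels give no replicate numbers shared across groups. As a replicate block, sets of 4 consecutive barcodes were fitted. For pairs of libraries from different groups, deviations from the group means correlated by 0.0766 to 0.330 within sets and by -0.330 to 0.128 between sets. At 1 h and at 3 h the deviations of a group's libraries are mirror images by construction. Their correlations with other libraries therefore come in pairs of opposite sign, and the ranges within and between sets are not independent. The block called 565 units for 6 h against 3 h, and 366 without it, and called ins-17 there (-0.97, adjusted p = 0.00402) and ins-1 (-0.67, adjusted p = 0.0492). DESeq2 called 682 units for 6 h against 3 h, and totals alone 1953 for 3 h against 1 h, where edgeR with TMM called 1241.

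Leaving out 1 library gave 3307 to 5324 called units at 1 h, 302 to 1466 for 3 h against 1 h, 120 to 450 for 6 h against 3 h, and 6 to 183, 4 to 60 and 90 to 174 bins in relative use at 1 h, 3 h and 6 h, where all libraries gave 62, 46 and 154 bins. The low ends of the unit counts are fits without a library of 1 h or 3 h, whose spread is then taken from the other groups. Read depth limits ins-4, ins-6 and ins-33 most, with 2 to 18 reads of ins-4 or ins-6 in each starved library. It also limits their neighbour ins-5, with 6, 0 and 12 reads in the starved libraries.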
